A study of Mus musculus with 4 samples.

Results

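Pantr1 is a long noncoding RNA gene, and Pou3f2 and Pou3f3 encode POU-domain transcription factors. The 3 genes were examined out of 27998 genes of the Illumina matrix, and their 11 isoform rows (9 of Pantr1, 1 of Pou3f2 and 1 of Pou3f3) out of 31986 rows of the Nanopore matrices. The genes were selected on results from these same cells. Pantr1 was chosen by the share that its most frequent isoform took of its molecules within single cells, so its isoform shares are given below as a description, without a test. The POU factors were added by their symbols. Pou3f3 lies beside Pantr1 on chromosome 1, whereas Pou3f2 lies on chromosome 4 and is therefore not a genomic neighbour of Pantr1.

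The cells were a suspension from the brain of C57BL/6 mouse at embryonic stage E18 (tissue labelled cortex, hippocampus and sub ventricular zone), with no genotype or treatment other than this given. One droplet emulsion was split into an aliquot of 190 cells and an aliquot of 951 cells, and the cDNA of each was sequenced on Illumina (short reads at the 3′ end, counted per gene) and on Nanopore (full-length molecules, counted per isoform). Of 1141 cells, 1121 had at least 1400 genes and were kept, 186 of the 190 cell aliquot and 935 of the 951 cell aliquot. They held 1809081 and 8295650 Illumina unique molecular identifiers (UMIs, each marking 1 captured RNA molecule) and 993220 and 4889148 isoform-assigned Nanopore UMIs. The aliquots came from 1 suspension, so every p-value below measures technical spread between 2 aliquots and not the spread between animals. Of the cell barcodes, 13 occurred in both aliquots. In 12 of these both cells were kept, and in 11 of the 12 pairs both cells fell in the same class. The median correlation of the paired profiles over genes was 0.64, against 0.57 for other pairings of the same cells. Without these 24 cells, 8 of the 8 differences of the 3 genes called below between classes, and 3 of the 3 called between platforms, were called again.

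Pantr1 is transcribed away from Pou3f3, from the opposite strand, and its RNA is not translated into a known protein. Pou3f2 (also called Brn2) and Pou3f3 (Brn1) bind octamer-like DNA motifs and act together in the developing cortex, where they are known for the production, migration and laminar position of upper-layer projection neurons. Radial glia are the neural stem cells of this tissue, and they give rise, often by way of intermediate progenitors, to glutamatergic neurons, while GABAergic neurons migrate in from ventral sources.

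In the Gencode vM21 annotation of GRCm38, Pantr1 (ENSMUSG00000060424) spans chr1:42590782-42694842 on the minus strand, with 12 annotated transcripts. Pou3f3 (ENSMUSG00000045515), a single-exon gene, spans chr1:42695768-42703176 on the plus strand. Pou3f2 (ENSMUSG00000095139), also a single-exon gene, spans chr4:22482780-22488366 on the minus strand. Pantr1 has a pair of main first exons, here called A and B. Exon A (chr1:42694747-42694825, 79 nt) starts 943 bp from the start of Pou3f3. Exon B of Pantr1-207 (213 nt) starts 1672 bp further away, 2615 bp from the start of Pou3f3. In Pantr1-209 exon B is 188 nt and starts at position 42693128 rather than 42693153, slightly further away still. Both are spliced to the same second exon (chr1:42666841-42667003, 163 nt). A cassette exon of 47 nt (chr1:42663556-42663602) is then included or skipped before the last exon (chr1:42648200-42648456 in Pantr1-207). Pantr1-209 (615 nt) has exon B and skips the cassette, and Pantr1-207 (680 nt) has exon B and includes it. Pantr1-212 (499 nt) has exon A and skips the cassette, and Pantr1-206 (546 nt) has exon A and includes it.

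**Figure D1:**
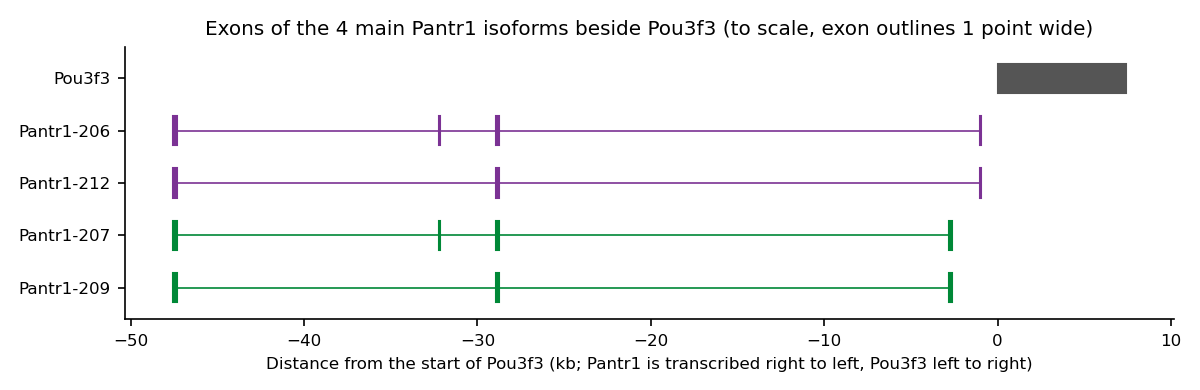
Exons (boxes) and introns (lines) of the 4 most abundant Pantr1 isoforms, 1 row each, and of Pou3f3, against the distance from the start of Pou3f3 (kb, to scale). The rows differ in the first exon at the right, A (943 bp from that start) or B (2615 bp), and in the cassette exon, and share the second exon and, but for a slightly longer end in Pantr1-209, the last exon.

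Sequences by which the isoforms are told apart, exon A and the cassette, were read from the Gencode vM21 transcripts on GRCm38 and are given 5′ to 3′ on the minus strand, since the long reads assign a Pantr1 molecule by these exons. In the cassette, the capitals mark the exon and the lower case its 20 flanking transcript bases on each side. In the first-exon junction the capitals mark the end of exon A and the lower case the start of the shared second exon.
Exon A: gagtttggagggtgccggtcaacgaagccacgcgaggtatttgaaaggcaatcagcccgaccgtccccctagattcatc
Cassette exon: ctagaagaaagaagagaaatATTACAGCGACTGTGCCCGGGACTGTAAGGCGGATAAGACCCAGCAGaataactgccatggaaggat
Junction without the cassette: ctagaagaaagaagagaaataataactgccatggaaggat
Junction of exon A and the second exon: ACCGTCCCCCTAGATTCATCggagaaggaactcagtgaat

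Exon A had 57.0% G and C, and the cassette 57.4%. The second and last exons are common to molecules that start with A and with B (the last exon of Pantr1-209 runs a few bases further), and the short reads, taken at the 3′ end and counted per gene, do not separate the first exons.

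The 3 genes were first compared between cell classes on the Illumina counts, to see in which cells each RNA was most abundant. Cells were clustered with Pantr1 and the Pou3f genes left out of the genes used, although genes that vary with them stayed in, and clusters were named X-like by marker genes. In the order of the 190 and 951 cell aliquots, there were 13 and 56 radial glia-like cells, 24 and 94 cycling cell-like, 16 and 71 intermediate progenitor-like, 38 and 196 immature glutamatergic-like, 21 and 117 mature glutamatergic-like (with the deep-layer markers Crym and Fezf2 among the top 10 genes of the cluster), 31 and 142 immature GABAergic-like cells, 17 and 127 cells that were mature GABAergic-like and 4 and 13 Cajal-Retzius-like cells. A further cluster of 22 and 119 cells (with leading genes Ndrg1, Nefl and Mef2c) stayed unnamed. The 2 GABAergic-like clusters had different leading genes, Ebf1, Isl1 and Zfhx3 in the immature and Sst, Maf and Nxph1 in the mature one. Whether they are stages of 1 lineage was not tested. The naming thresholds were chosen with the clusters in view, and 1 of the 2 immature glutamatergic-like clusters had no marker of its class among its top 10 genes. The cycling cell-like cluster also had 5 of 9 immature GABAergic and 5 of 8 intermediate progenitor markers raised against the other cells. The radial glia-like cluster had 8 of 8 cycling cell markers raised, so these classes are not cleanly separate. Nor is the intermediate progenitor-like cluster, which had 6 of 8 of its own and 5 of 8 immature glutamatergic markers raised. Its mean log2 difference was 1.92 over its own markers and 2.13 over 5 microglia markers, although 0 of these 5 counted as raised. Levels are UMIs of a gene per 1000000 UMIs of the class (counts per 1000000, CPM), given below in the order 190 then 951 cell aliquot.

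Pantr1 was highest in immature glutamatergic-like and intermediate progenitor-like cells and lowest, among the classes with enough cells, in the mature neurons of both types. It stood at 1028 and 995 CPM in immature glutamatergic-like cells and at 1055 and 873 CPM in intermediate progenitor-like cells, whose ranges overlapped. Radial glia-like cells had 804 and 832 CPM and cycling cell-like cells 757 and 835 CPM, again overlapping each other and below both former classes. A step below these progenitors came immature GABAergic-like cells (491 and 448 CPM) and the unnamed cluster (443 and 474 CPM), which overlapped. Mature GABAergic-like cells had 270 and 258 CPM and mature glutamatergic-like cells 252 and 250 CPM, the former higher in each aliquot by less than 20 CPM. The 4 and 13 Cajal-Retzius-like cells had 118 and 79.8 CPM and were too few to enter the fit.

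Pou3f2 had the same class at the top, with a steeper fall from it. Immature glutamatergic-like cells had 710 and 659 CPM, intermediate progenitor-like cells 608 and 459 CPM and cycling cell-like cells 357 and 323 CPM, 3 ranges that did not overlap. The unnamed cluster followed with 262 and 225 CPM. Radial glia-like cells, high for Pantr1, lay lower in the order for Pou3f2 with 189 and 177 CPM, above immature GABAergic-like cells with 140 and 170 CPM. Mature glutamatergic-like cells had 140 and 81.4 CPM and mature GABAergic-like cells 104 and 87.6 CPM, which overlapped. In Cajal-Retzius-like cells the gene was at 23.6 CPM in the 190 cell aliquot and had no UMI in the 951 cell aliquot.

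Pou3f3, the gene beside Pantr1, was likewise highest in immature glutamatergic-like cells, with 343 and 279 CPM. Intermediate progenitor-like cells had 176 and 199 CPM and cycling cell-like cells 196 and 136 CPM, which overlapped. The unnamed cluster (104 and 139 CPM), radial glia-like cells (105 and 116 CPM) and, of the GABAergic-like classes, the immature one (129 and 84.8 CPM) could not be told apart by their ranges. Both mature classes were low and overlapped, at 65.4 and 77.9 CPM in mature glutamatergic-like and 62.2 and 71.7 CPM in mature GABAergic-like cells. Cajal-Retzius-like cells had 70.9 and 16.0 CPM.

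**Figure D2:**
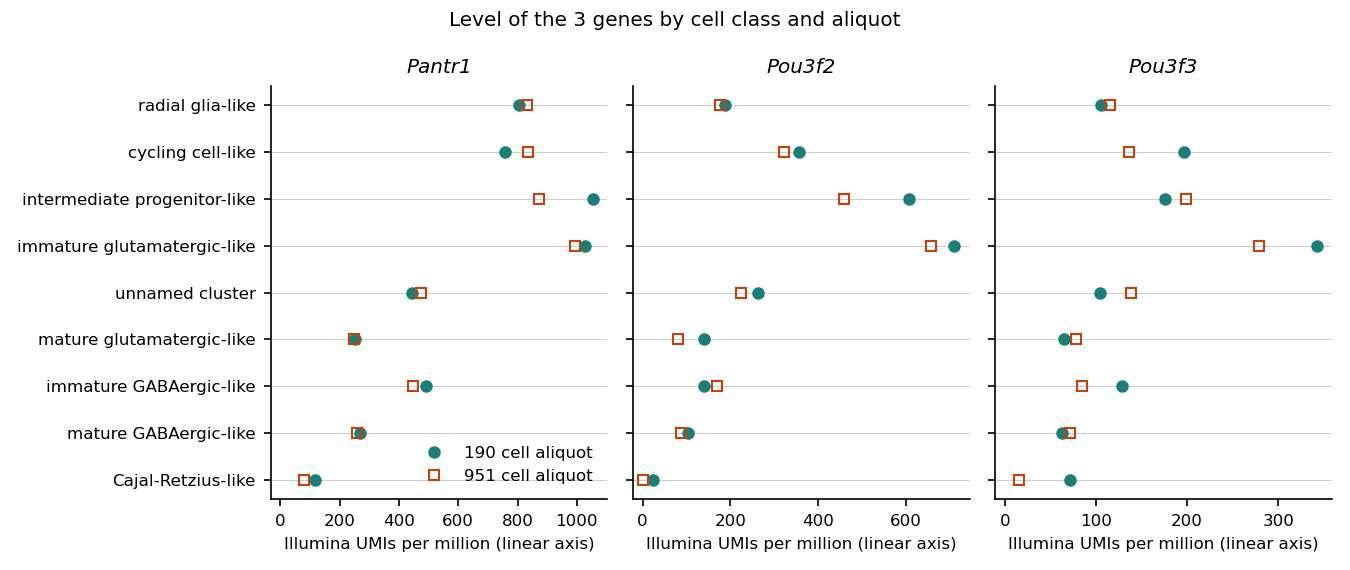
Illumina level of Pantr1, Pou3f2 and Pou3f3 (CPM, horizontal axis from 0) in each cell class (rows), with a filled circle for the 190 and an open square for the 951 cell aliquot. Immature glutamatergic-like cells have the highest mean of the aliquots for all 3 genes. Radial glia-like cells lie below intermediate progenitor-like cells for Pantr1 (804 and 832 against 1055 and 873 CPM). They lie further below them for Pou3f2 (189 and 177 against 608 and 459 CPM).

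From radial glia-like to immature glutamatergic-like cells the POU factors rose, while Pantr1 did not pass the test. Pou3f2 was 3.73-fold higher (log2 difference 1.90 ± 0.21, SE, 2 sums per class, edgeR adjusted p = 1.81e-09) and Pou3f3 2.71-fold higher (1.44 ± 0.23, edgeR adjusted p = 3.53e-06). Pantr1 differed by 0.29 ± 0.15 on the log2 scale, with an edgeR adjusted p of 0.148. Thus 2 of 3 genes passed the test as higher in a comparison in which 16.2% of 7951 genes were called higher and 16.1% lower. With clusters at resolution 0.5 the Pou3f2 difference was 0.98 (edgeR adjusted p = 1.52e-04). With the aliquot as a block the Pantr1 difference was again 0.29 and passed (edgeR adjusted p = 0.0155), and on Nanopore UMIs it was 0.68 (edgeR adjusted p = 1.90e-04), so the Pantr1 call depends on the fit and the platform. Without the cells of shared barcodes it was 0.23 (edgeR adjusted p = 0.314). Leaving out the immature cluster without a class marker among its top 10 genes gave 0.12 for Pantr1 (edgeR adjusted p = 0.647).

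From immature to mature glutamatergic-like cells all 3 genes fell. Pou3f2 was 6.33-fold lower (log2 difference -2.66 ± 0.21, edgeR adjusted p = 1.49e-11), Pou3f3 4.05-fold lower (-2.02 ± 0.23, edgeR adjusted p = 5.30e-08) and Pantr1 3.92-fold lower (-1.97 ± 0.16, edgeR adjusted p = 1.49e-11). By p-value they ranked 2, 10 and 3 among 7951 genes, of which 1.80% were called lower and 2.94% higher. The immature and mature sums did not overlap for any of the 3. With the aliquot as a block the number of genes called in this comparison went from 377 to 1027, and the 3 genes were again called lower. When the unnamed cluster was counted as mature glutamatergic-like, a choice made once the data had been seen, the log2 differences were -1.50 for Pantr1 and -1.98 for Pou3f2.

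The mature cells were the larger libraries, with medians of 14797 and 11732 UMIs per cell against 7874 and 7459 UMIs in immature glutamatergic-like cells. Counted in UMIs per cell rather than in CPM, Pantr1 went from 8.61 and 7.73 UMIs in immature to 3.86 and 3.09 UMIs in mature glutamatergic-like cells. Pou3f2 went from 5.95 and 5.12 to 2.14 and 1.01 UMIs per cell, and Pou3f3 from 2.87 and 2.17 to 1.00 and 0.97 UMIs per cell. The genes were thus lower in UMIs per cell as well as in CPM in both aliquots. Radial glia-like cells, with medians of 10637 and 10672 UMIs, held more Pantr1 per cell than either, 11.2 and 12.7 UMIs.

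Between the immature neurons, all 3 genes were lower in GABAergic-like than in glutamatergic-like cells. Pou3f2 was 4.11-fold lower (log2 difference -2.04 ± 0.21, edgeR adjusted p = 2.31e-09), Pou3f3 2.97-fold lower (-1.57 ± 0.24, edgeR adjusted p = 7.16e-06) and Pantr1 2.07-fold lower (-1.05 ± 0.16, edgeR adjusted p = 6.51e-06). Over all genes 2.93% were called lower and 2.44% higher. A block on the aliquot raised the number of called genes from 427 to 803.

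Between the mature neurons no difference of the 3 genes passed the test. Pantr1 differed by -0.015 ± 0.17, Pou3f2 by -0.26 ± 0.24 and Pou3f3 by -0.14 ± 0.28 on the log2 scale (mature GABAergic-like minus mature glutamatergic-like, edgeR adjusted p = 1, 0.901 and 0.874). By edgeR 0 of the 3 passed, 0 also at an unadjusted p under 0.05, and 0 by DESeq2, beside 5.65% of all genes called lower and 3.33% called higher. A block on the aliquot raised the number of called genes from 714 to 1181 and called none of the 3. Counting the unnamed cluster as mature glutamatergic-like made Pou3f2 lower in mature GABAergic-like cells (-0.96, edgeR adjusted p = 0.00302).

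The other members of the family were read in the same way. Pou3f1 and Pou3f4 encode the remaining class III POU factors, and Pantr2, a second noncoding gene 3885 bp beyond the end of Pou3f3, was not analysed here. Pou3f1 was highest in the unnamed cluster, with 194 and 236 CPM, next in immature glutamatergic-like cells with 167 and 194 CPM, and low in radial glia-like cells with 5.55 and 22.2 CPM. It rose from radial glia-like to immature glutamatergic-like cells as Pou3f2 and Pou3f3 did (log2 difference 3.27 ± 0.66, edgeR adjusted p = 0.00413), on 1 and 19 UMIs in the radial glia sums. The 190 cell aliquot alone gave 4.30 and the 951 cell aliquot alone 3.05, and at resolution 0.5 the difference was 1.48 and missed the threshold (edgeR adjusted p = 0.0777). In mature against immature glutamatergic-like cells it differed by -0.68 ± 0.48 without passing the test (edgeR adjusted p = 0.623). In mature GABAergic-like against mature glutamatergic-like cells Pou3f1 was lower (-3.16 ± 0.83, edgeR adjusted p = 0.0476), on 3 and 6 UMIs in the GABAergic sums, and the call was lost without doublets (edgeR adjusted p = 0.115) and on Nanopore UMIs (edgeR adjusted p = 0.0725).

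Pou3f4 was the one class III factor called higher by edgeR in GABAergic-like cells. Its level was 76.0 and 112 CPM in immature GABAergic-like cells and 28.3 and 24.3 CPM in immature glutamatergic-like cells, a log2 difference of 2.02 ± 0.37 (edgeR adjusted p = 1.74e-04). Among mature cells it was 51.8 and 31.9 CPM in GABAergic-like and 9.34 and 8.28 CPM in glutamatergic-like cells (1.99 ± 0.51, edgeR adjusted p = 0.00782). These mature sums rest on 3 to 20 UMIs, and DESeq2 did not call the mature difference (2.06, DESeq2 adjusted p = 0.104). From immature to mature glutamatergic-like cells Pou3f4 differed by -1.52 ± 0.47 and missed the threshold (edgeR adjusted p = 0.0512), which it passed with the aliquot as a block (edgeR adjusted p = 0.00857).

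Nanopore counted Pantr1 as 9 isoforms, of which 4 held nearly all molecules. Pantr1-209 had 462 and 2251 UMIs, 65.0% of the 4174 Pantr1 UMIs (exact 95% binomial interval 63.5% to 66.4%, covering counting error only, as do all intervals here). Pantr1-207 had 137 and 753 UMIs (21.3%), Pantr1-212 had 58 and 253 UMIs (7.45%) and Pantr1-206 had 27 and 138 UMIs (3.95%). The share of Pantr1-209 was 66.2% in the 190 cell and 64.8% in the 951 cell aliquot, within the interval of either. Of the remaining isoforms, Pantr1-211 had 6 and 29 UMIs (0.839%), Pantr1-201 5 and 28 UMIs (0.791%), Pantr1-210 1 and 15 UMIs (0.383%), Pantr1-202 1 and 9 UMIs (0.240%), and Pantr1-205 a single UMI. Pou3f2 and Pou3f3, with no intron to splice, each had a single isoform row, with 2159 and 1202 UMIs.

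By first exon, 493 of 4131 informative Pantr1 molecules began with exon A, which is 11.9% (10.96% to 12.96%), and the others with exon B. The share was 12.6% in the 190 cell and 11.8% in the 951 cell aliquot. By the cassette, 26.5% of molecules included it (25.2% to 27.9%). Inclusion was 34.7% among molecules that began with A (30.4% to 39.1%) and 25.4% among those that began with B (24.0% to 26.9%). These intervals over all cells did not overlap, but those of the 190 cell aliquot did (22.1% to 42.8% and 20.3% to 27.2%), as did those within each fitted class, and in immature glutamatergic-like cells inclusion was 22.8% with A and 21.4% with B.

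Across classes the first exon used differed widely. Exon A made up 6.01% of molecules in immature glutamatergic-like cells (4.79% to 7.43%, and 6.88% and 5.84% in the aliquots). It made up 34.7% in mature glutamatergic-like cells (28.4% to 41.3%, 77 of 222 molecules), but the aliquots gave 51.4% of 35 and 31.6% of 187 molecules. In mature GABAergic-like cells it made up 34.6% (25.6% to 44.4%, 37 of 107 molecules, 38.5% and 34.0% in the aliquots). Over both aliquots, the lowest share among the fitted classes was thus that of the class with the highest mean level of Pantr1. The highest shares were those of the 2 classes with the lowest mean level.

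Over both aliquots the other fitted classes lay between. Exon A held 17.4% in radial glia-like cells (17.5% and 17.4% in the aliquots), 17.3% in immature GABAergic-like cells (6 of 50 and 45 of 245 molecules) and 13.3% in the unnamed cluster (16.7% and 12.9%). Cycling cell-like cells had 8.78% (9.56% and 8.61%) and intermediate progenitor-like cells 7.36% (6.31% and 7.65%). The interval of the latter (5.23% to 10.0%) overlapped that of immature glutamatergic-like cells, and in the 190 cell aliquot their share was the lower one. In Cajal-Retzius-like cells 2 of 2 molecules began with A.

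**Figure D3:**
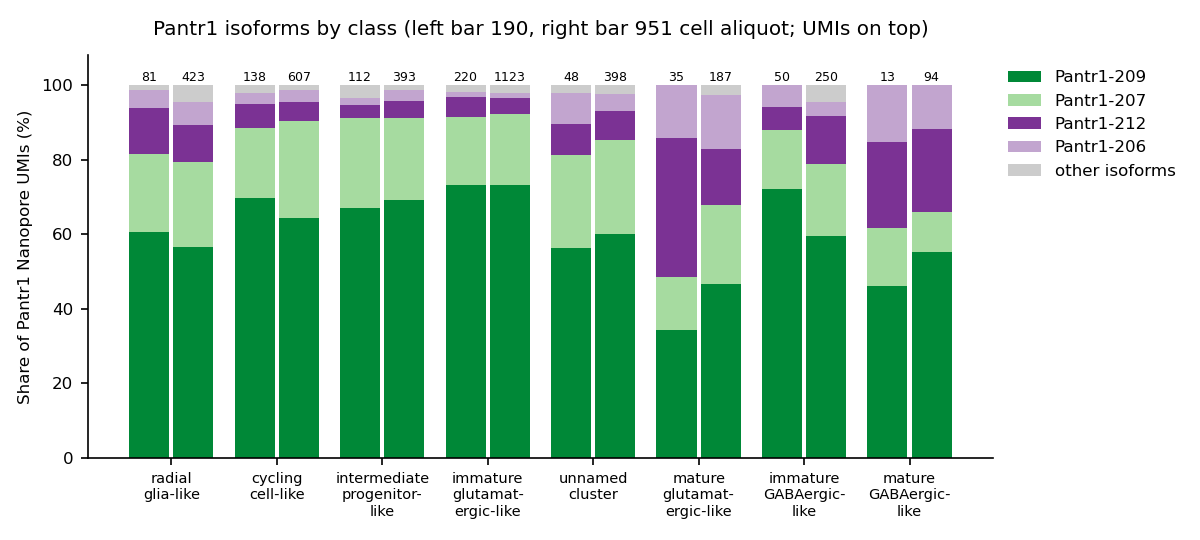
Share of Pantr1 Nanopore UMIs (percent, vertical axis) held by Pantr1-209, Pantr1-207, Pantr1-212, Pantr1-206 and the other isoforms in each class, as stacked bars (left 190, right 951 cell aliquot) with the number of UMIs on top. Over both aliquots the exon A isoforms Pantr1-212 and Pantr1-206 take the smallest part in immature glutamatergic-like cells (exon A 6.01%). They take the largest part in the mature classes (34.7% and 34.6%). In the 190 cell aliquot the exon A part is smallest in intermediate progenitor-like cells (6.31%, against 6.88% in immature glutamatergic-like cells).

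A share can move because one isoform rises or another falls, so molecules of each first exon were also counted as CPM of the Nanopore UMIs. Exon A molecules varied less between classes than exon B molecules. Over the 16 sums of the 8 fitted classes exon A molecules ranged from 63.3 to 142 CPM, with 5 to 71 UMIs behind each sum. Their highest class was 2.21 and 2.06 times the lowest in the 190 and 951 cell aliquots. Exon B molecules ranged from 96.6 to 1296 CPM, with the highest class 13.4 and 7.78 times the lowest.

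Between the glutamatergic-like neurons only exon B molecules differed beyond counting error. Exon A molecules were at 88.7 and 72.7 CPM in immature and 102 and 69.5 CPM in mature cells, a ratio of immature to mature of 0.867 (0.407 to 1.82) and 1.05 (0.724 to 1.51). Exon B molecules were at 1201 and 1172 CPM in immature and 96.6 and 151 CPM in mature cells, a ratio of 12.4 (7.57 to 21.7) and 7.78 (6.47 to 9.42). The intervals of exon A include 1 in both aliquots, and those of exon B do not. For the whole gene the log2 difference, mature minus immature, was -2.56 on Nanopore UMIs and -1.97 on Illumina UMIs.

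Between radial glia-like and immature glutamatergic-like cells the ratios of the first exons lay on opposite sides of 1. Exon A molecules were at 140 and 142 CPM in radial glia-like cells, the highest class, and exon B molecules at 660 and 673 CPM. The ratio of immature glutamatergic-like to radial glia-like was 0.633 (0.285 to 1.42) and 0.513 (0.360 to 0.728) for A, against 1.82 (1.37 to 2.44) and 1.74 (1.54 to 1.97) for B. For A the interval of the 190 cell aliquot includes 1. In the immature against the mature GABAergic-like cells the ratio was 0.660 (0.168 to 2.73) and 1.03 (0.639 to 1.67) for A and 3.03 (1.41 to 7.44) and 2.36 (1.76 to 3.19) for B.

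**Figure D4:**
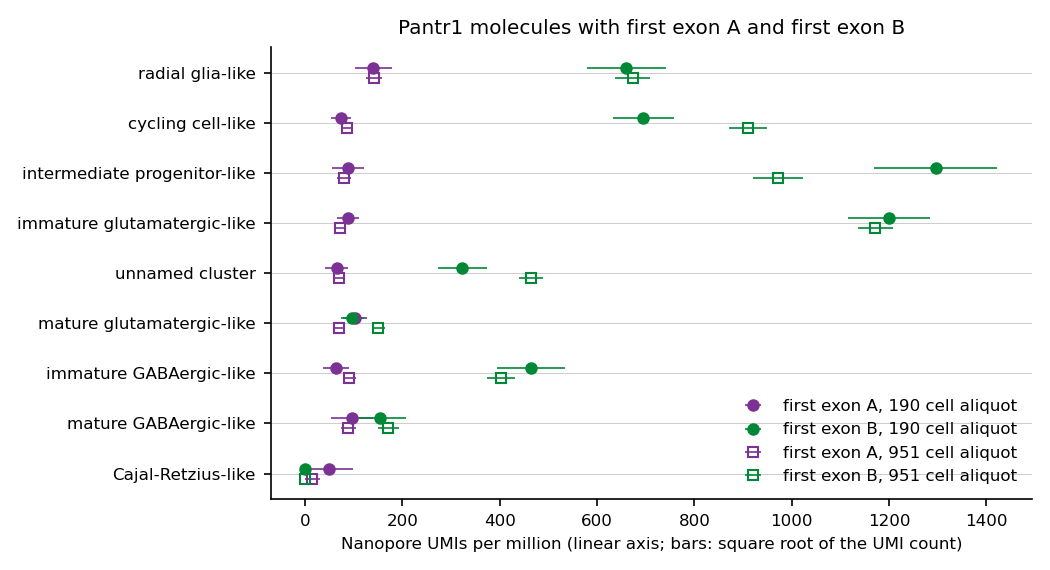
Nanopore level (CPM, horizontal axis) of Pantr1 molecules that begin with exon A (purple) and with exon B (green) in each class, as circles for the 190 and squares for the 951 cell aliquot, with bars for the square root of the UMI count. Exon A stays between 63.3 and 142 CPM in all 8 fitted classes, while exon B runs from 96.6 CPM in mature to 1201 CPM in immature glutamatergic-like cells of the 190 cell aliquot.

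The cassette varied less than the first exon. It was included in 21.5% of molecules in immature glutamatergic-like cells (19.3% to 23.8%) and in 35.8% in mature glutamatergic-like cells (29.4% to 42.5%). Radial glia-like cells had 29.9%, cycling cell-like 28.6%, intermediate progenitor-like 26.5%, the unnamed cluster 31.7% and the GABAergic-like classes 24.7% (immature) and 23.4% (mature). Counting both exons, Pantr1-209 held 73.2% of molecules in immature glutamatergic-like cells (70.7% to 75.5%) and 44.6% in mature glutamatergic-like cells (37.9% to 51.4%).

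In single cells the same isoform was nearly always in front. At least 10 Pantr1 UMIs were found in 107 cells, 19 and 88 in the aliquots, with a median of 13 and at most 39 UMIs. The most frequent isoform of a cell held 68.7% ± 13.5 (SD, n = 107 cells) of its molecules, and it was Pantr1-209 in 104 cells, ties included. Only 1 cell had a single isoform, 71 cells had at least 3, and 61 had molecules of both first exons. These are the values by which Pantr1 was chosen, and the number of UMIs that leaked in from other cells was not measured.

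The share of Pantr1-209 ran from 36.4% to 100% with a median of 70.0%. Its SD was 13.9 percentage points over cells, beside 12.9 from binomial counting around the pooled share and 12.7 around the share of each class. In the 32 cells with at least 15 UMIs the SD was 15.2, beside 10.99 and 10.7. By class, the median share of the most frequent isoform was 76.9% and 76.9% in immature glutamatergic-like cells (7 and 30 cells), 72.7% and 58.8% in radial glia-like cells (3 and 17 cells) and 82.3% and 64.3% in cycling cell-like cells (4 and 21 cells). Few cells of the mature classes reached 10 UMIs, 4 in mature glutamatergic-like and 0 in mature GABAergic-like.

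**Figure D5:**
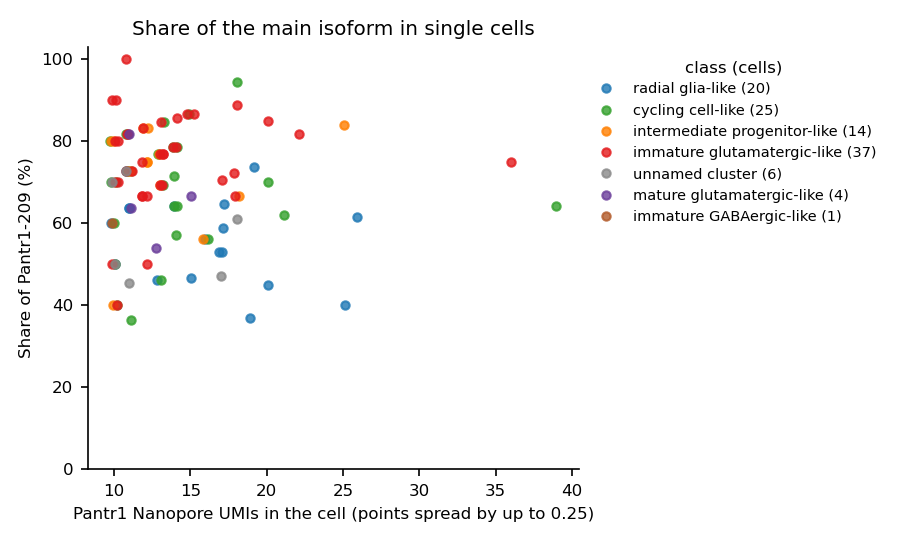
Share of Pantr1-209 (percent, vertical axis) against the number of Pantr1 UMIs (horizontal axis) in the 107 cells with at least 10 UMIs, coloured by class. The cells spread from 36.4% to 100% around a median of 70.0%, with an SD of 13.9 percentage points.

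Across cells, Pantr1 varied with both POU factors to a limited extent. In 1016 cells thinned to 4000 UMIs (8 and 97 shallower cells left out) Pearson's r of Illumina log values was 0.28 for Pantr1 and Pou3f3, 0.41 for Pantr1 and Pou3f2 and 0.28 for Pou3f2 and Pou3f3. In the 190 and 951 cell aliquots r was 0.18 and 0.30 for Pantr1 with Pou3f3 and 0.34 and 0.42 for Pantr1 with Pou3f2. Without thinning the values were 0.40 and 0.49. The cells share a library and its depth, and class differences enter such an r.

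Within classes r for Pantr1 and Pou3f3 ran from -0.15 in cycling cell-like to 0.30 in mature GABAergic-like cells, and was 0.25 in immature glutamatergic-like cells. For Pantr1 and Pou3f2 it was 0.41 in immature and 0.40 in mature glutamatergic-like cells, 0.064 in cycling cell-like cells and -0.0084 in mature GABAergic-like cells. Over all cells the r of Pantr1 was thus larger with Pou3f2 than with Pou3f3, the gene beside it, and this difference was not tested. The order was reversed in immature GABAergic-like cells, with 0.18 for Pou3f2 and 0.27 for Pou3f3, and in mature GABAergic-like cells. Pou3f3 had fewer Illumina UMIs than Pou3f2 (1480 against 2962), and the effect of this on r was not tested. The counts are sparse, and these weak values are given as a description only.

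Over the 16 class sums the 3 genes were near each other among 5887 genes with a mean of at least 20 CPM. Pou3f2 was most like Pou3f3 (Pearson's r of log2 levels 0.91), then Pantr1 (0.87), Hspa8 (0.85), Cdkn1b (0.81) and Unc5d (0.81). Pou3f3 was most like Pou3f2 (0.91), Pantr1 (0.85), Cdkn1b (0.85), Aff3 (0.80) and Hspa8 (0.79). Cdkn1b encodes a cyclin-dependent kinase inhibitor, Unc5d a netrin receptor and Hspa8 a constitutive heat shock protein.

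Among the 5 genes most like Pantr1 were Pou3f2 (0.87), Rpl13a (0.86), Asf1a (0.85) and Sncaip (0.85), with Pou3f3 at rank 7 (0.85). Rpl13a encodes a ribosomal protein. In the 8 sums of the 951 cell aliquot alone, 5 of the 15 places held, 0 for Pantr1, 3 for Pou3f2 and 2 for Pou3f3. There Pou3f2 stood at rank 8 and Pou3f3 at rank 42 for Pantr1. Pantr1 stood at rank 5 for Pou3f2 and at rank 17 for Pou3f3. The nearness of Pantr1 and Pou3f3 thus did not hold in that aliquot, whereas Pou3f2 and Pou3f3 stayed at ranks 1 and 2 for each other. The 16 points share 8 classes, so the values describe the profile over classes and nothing finer.

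Genes of pathways in which the POU factors are known to act were read from 3 lists of 10 genes each. Between 4 and 8 genes of each list had been used for clustering. Differences between the clusters are therefore partly built in for such genes, and the counts, SEs and p-values of list genes are descriptions. Of the reelin and Cdk5 pathway, which guides migrating neurons, 5 of 10 genes were called higher and 1 lower in immature glutamatergic-like than in radial glia-like cells (4 by DESeq2), beside 16.2% and 16.1% of all genes (median log2 difference 1.10, all genes 0.021). Among them were Dcx, a microtubule-binding protein (3.39 ± 0.23, edgeR adjusted p = 7.96e-15), and Cdk5r1, the activator of Cdk5 (2.91 ± 0.25, edgeR adjusted p = 6.19e-12), while Nde1, a dynein regulator, was lower (-5.67 ± 0.52, edgeR adjusted p = 3.48e-11). From immature to mature glutamatergic-like cells, where Pantr1, Pou3f2 and Pou3f3 fell, 0 of the 10 were called by edgeR (1 at an unadjusted p under 0.05, 0 by DESeq2, 3 lower with the aliquot as a block), with a median of -0.065.

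In immature GABAergic-like against immature glutamatergic-like cells 3 of the 10 were lower by edgeR and 1 by DESeq2, beside 2.93% of all genes by edgeR. The 3 were Dab1, the reelin adaptor (-3.38), Rnd2, a small GTPase (-1.34), and Lrp8, a reelin receptor (-0.92). In mature GABAergic-like against mature glutamatergic-like cells 1 was higher (Dcx, 0.67) and 1 lower (Dab1, -3.58), or 2 and 2 with the aliquot as a block and 1 in all by DESeq2, beside 3.33% of all genes higher and 5.65% lower by edgeR.

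Of the 10 upper-layer and callosal neuron genes, 5 were higher and 2 lower in immature glutamatergic-like than in radial glia-like cells (6 called by DESeq2, median log2 difference 1.67), beside the same 16.2% and 16.1% of all genes, among them the semaphorin co-receptor Plxna4 (4.85 ± 0.43, edgeR adjusted p = 1.04e-11) and Cux2 (3.81 ± 0.67, edgeR adjusted p = 1.81e-05), an upper-layer homeobox gene. In mature against immature glutamatergic-like cells 6 were lower and 1 higher (5 called by DESeq2, median -1.47, all genes 0.0016, 3 higher with the aliquot as a block), beside 1.80% and 2.94% of all genes. The lower genes included Cux2 (-4.49), Cux1 (-3.48) and Plxna4 (-2.95). In immature GABAergic-like against immature glutamatergic-like cells 6 were lower and 0 higher (4 called by DESeq2, median -1.99, 1 higher with the aliquot as a block), beside 2.93% and 2.44% of all genes, among them Lhx2 (-5.03) and Cux2 (-2.29). In the mature cells 3 were higher and 4 lower in GABAergic-like cells (6 called by DESeq2), beside 3.33% and 5.65% of all genes, with Cux2 at 6.07 and Lhx2 at -5.00.

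Of the Notch pathway, which keeps progenitors from differentiating into neurons, 7 of 10 genes were tested and Dll1, Jag1 and Notch2 did not pass the filter on low counts. In immature glutamatergic-like against radial glia-like cells 4 were lower and 0 higher by edgeR (3 called by DESeq2, median log2 difference -1.76), beside 16.1% and 16.2% of all genes, namely the receptor Notch1 (-6.18) and the target genes Hes1 (-6.17), Hes5 (-5.09) and Hey1 (-1.76). Pantr1 was at 1028 and 995 CPM in the former and 804 and 832 CPM in the latter. In mature against immature glutamatergic-like cells 1 was lower (Mfng, a glycosyltransferase acting on Notch, -1.52, 2 lower with the aliquot as a block), beside 1.80% of all genes. Between GABAergic-like and glutamatergic-like cells Mfng was higher in both the immature (1.27) and the mature comparison (1.75), and Notch1 was higher in the immature one (2.82), beside 3.33% of all genes called higher between the mature and 2.44% between the immature neurons. DESeq2 called 0 genes of the list in these last 3 comparisons.

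Finally, the sequencers were compared on the same cDNA, summed over all kept cells. The authors assigned Nanopore UMIs by matching them to Illumina UMIs of the same gene or region and cell, so the counts are not independent. A higher Nanopore CPM thus means a yield of isoform-assigned UMIs per Illumina UMI above that over all genes. Pantr1 had 640 and 617 CPM on Illumina and 703 and 711 CPM on Nanopore. Pou3f2 went from 331 and 285 CPM to 399 and 361 CPM, and Pou3f3 from 160 and 143 CPM to 227 and 200 CPM. Illumina and Nanopore values did not overlap for any of the 3.

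All 3 genes passed the test as higher on Nanopore, as did 20.2% of 9855 genes. The log2 difference was 0.61 ± 0.10 for Pou3f3 (edgeR adjusted p = 0.00515), 0.43 ± 0.10 for Pou3f2 (edgeR adjusted p = 0.0177) and 0.30 ± 0.083 for Pantr1 (edgeR adjusted p = 0.0278). The fit also rescaled the libraries, with TMM factors of 1.08 and 1.06 for Illumina and 0.962 and 0.913 for Nanopore. These differences are larger than those of the plain CPM above. The call of Pantr1 was lost without the filter on low counts (edgeR adjusted p = 0.0561). The main fit did not pair the libraries of an aliquot. With the aliquot as a block 6972 rather than 4976 genes were called, all 3 genes again among them (Pantr1, edgeR adjusted p = 2.82e-04). Per 100 Illumina UMIs there were 60.3 and 67.9 Nanopore UMIs of Pantr1, 66.1 and 74.6 of Pou3f2 and 77.6 and 82.1 of Pou3f3, against 54.9 and 58.9 over all genes. For Pantr1 this yield was not even over classes. It was 43.2 and 51.7 in mature glutamatergic-like, 55.9 and 59.5 in radial glia-like and 67.3 and 74.1 in immature glutamatergic-like cells, and its part in the class shares of the first exons was not tested.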

How the data were processed

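The authors counted Illumina UMIs per gene with Cell Ranger 2.0 (mm10) and Nanopore UMIs per Gencode isoform with Sicelore after minimap2 alignment. Both deposited tables hold raw UMI counts, and UMIs that could not be assigned to 1 isoform are not in the Nanopore table. The Pantr1 and Pou3f genes and all gene lists were chosen with earlier results of these data known. Cells with at least 1400 genes were kept. They were integrated over aliquots and clustered with Seurat 5.3.0 (2000 variable genes, 11 dimensions, resolution 0.8), and 7 cells called doublets were kept in the main analysis. UMIs were summed per aliquot and class and tested with the quasi-likelihood test of edgeR 4.0.16 (TMM, filterByExpr, robust fit, Benjamini-Hochberg over all genes, threshold 0.05), with 1 fit for the 8 classes. Same-numbered sums share an aliquot: their deviations from group means correlated at 0.60 between platforms and at 0.14 to 0.30 between classes (28 pairs), so the numbers pair the samples. Named genes were the members, their class III relatives, the 5 genes most like each member by r of log2(CPM + 10), and at most 4 called genes per list and comparison, largest change first. The test was tried on simulated data. Sequences and coordinates come from Gencode vM21, whereas the isoform names of the deposited table come from another release. Some genes and sequences that the naming rule covers are not reported here.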

Additional observations from a re-analysis of the deposited data

How the results depend on the processing

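Of the recomputed differences of the 3 genes, 155 were counted as unchanged. These kept their direction and their side of the threshold or, in a single aliquot, moved by at most 1 SE. Also counted here were 2 uncalled differences that turned sign without the 190 cell aliquot. They were those of Pantr1 and Pou3f2 between the mature neurons, and that of Pou3f2 moved by more than 1 SE. Another 7 kept their sign but moved by more than 1 SE, a further 8 changed sign, 3 newly passed the test and 1 lost its call. With DESeq2 the numbers of called genes were 3071 (platforms, against 4976 with edgeR), 1440 (immature glutamatergic-like against radial glia-like, 2571), 123 (mature against immature glutamatergic-like, 377), 204 (immature neurons, 427) and 290 (mature neurons, 714). With the aliquot as a replicate block they were 1027, 803 and 1181 for the last 3, and besides Pantr1 in immature glutamatergic-like against radial glia-like cells no call of the 3 genes changed. On Nanopore UMIs the immature neurons gave 278. Between the mature neurons, where no gene of the 3 was called, the sign turned for Pantr1 to 0.0016 without the unmarked immature cluster, 9.7e-04 with the members kept for clustering, 0.18 on Nanopore UMIs, 0.31 at resolution 1.2, 6.4e-05 without doublets and 0.039 without shared barcodes, and on Nanopore UMIs for Pou3f2 (0.23) and Pou3f3 (0.061). Without the 190 cell aliquot Pantr1 was at 0.0024 and Pou3f2 at 0.059, and without the 951 cell aliquot at -0.074 and -0.59. The cause was not tested. Leaving out each aliquot gave 64.8% to 66.2% for Pantr1-209, 31.6% to 51.4% for exon A in mature glutamatergic-like cells, 67.8% to 73.2% for the most frequent isoform in single cells and 0.18 to 0.30 for r of Pantr1 and Pou3f3, which was 0.40 unthinned and 0.43 on Nanopore. In the 951 cell aliquot alone 5 of 15 like genes were shared. Counts of called genes cannot be had from 1 aliquot. The alternatives without shared barcodes, without the unmarked cluster and with the unnamed cluster as mature were chosen after seeing the data. Exon A rests on 5 to 71 UMIs per sum, which limits its ratios.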
